A study of Homo sapiens with 12 samples.

Results

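The genes described here are the subunits of the m6A writer complex, METTL14, METTL3, WTAP, VIRMA, RBM15, RBM15B, ZC3H13 and CBLL1, together with METTL16, a separate m6A methyltransferase. They were chosen by name, with earlier results of these data known, and are 9 of the 65969 gene identifiers in the deposited table. METTL14 was the gene targeted by the hairpins, so the other 8 genes were counted without it. RNA was measured in 12 libraries of human embryoid bodies, which are aggregates that pluripotent stem cells form as they differentiate in suspension. Every library came from H1 or MEL1, 2 human embryonic stem cell lines, carrying a lentiviral short hairpin RNA induced by doxycycline, and the hairpin was either SCR (the control) or KD1, KD2 or KD3 (against METTL14). H1 gave 8 libraries, 2 per hairpin with SCR included, and MEL1 gave 1 SCR, 2 KD1 and 1 KD2 library. Cells of all groups, controls included, were selected with puromycin, seeded at 500 per microwell and given doxycycline (2 µg/ml) over 10 days. The knockdown is therefore a partial depletion by RNA interference in selected cell populations, not a deletion, and the labels do not say whether libraries of a group came from separate cultures.

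The writer complex methylates adenosines at the N6 position in messenger RNA while it is being made. METTL3 is the catalytic subunit, and METTL14 is its partner in a heterodimer that binds the RNA substrate but does not itself transfer the methyl group. WTAP joins the heterodimer to the regulatory part of the complex, which holds VIRMA, ZC3H13, CBLL1 (also called HAKAI) and either RBM15 or RBM15B. In embryonic stem cells m6A marks transcripts of pluripotency genes, and the mark is known to take part in their turnover as cells leave the pluripotent state. METTL16 works outside the complex on structured RNAs, among them the transcript of MAT2A, the enzyme that makes the methyl donor S-adenosylmethionine.

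The 3 methyltransferase-fold genes among the 9 differ at 1 short motif, which is shown because it sets the catalytic genes apart from METTL14. METTL3 carries DPPW and METTL16 carries NPPF, the motifs of active adenine methyltransferases, while METTL14 has EPPL at the matching place. Each motif was found once in the longest coding sequence among the protein-coding transcripts of its gene in GENCODE release 29 (GRCh38). It spans codons 395 to 398 of 580 in METTL3 (chromosome 14, minus strand), 192 to 195 of 456 in METTL14 (chromosome 4, plus strand) and 184 to 187 of 562 in METTL16 (chromosome 17, minus strand). The sequences below are the sense strand, 5′ to 3′, with the motif codons in capitals and 8 codons on either side.
METTL3: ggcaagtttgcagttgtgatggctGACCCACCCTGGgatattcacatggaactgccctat
METTL14: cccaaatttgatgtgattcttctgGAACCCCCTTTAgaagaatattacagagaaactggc
METTL16: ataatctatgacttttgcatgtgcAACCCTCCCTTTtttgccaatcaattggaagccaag

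All 9 genes were detected in all 12 libraries, from a lowest count of 207 for METTL14 to a highest of 8757 for RBM15B, and all 9 were among the 24898 genes that passed the filter on low counts. Library totals were 15963241 estimated counts for MEL1 SCR and 36609628 to 43508287 for the others, so values of the MEL1 SCR library carry more counting error. Levels below are in CPM, counts put on one common library size after TMM scaling, and changes are log2 fold changes from edgeR's quasi-likelihood F-test, with p adjusted by the Benjamini-Hochberg method over all 24898 genes and a call at an adjusted p under 0.05. These p-values measure the spread between these samples, which may be technical. In bulk RNA, fewer cells of a type and less RNA per cell cannot be told apart. The labels give the cell type as embryonic stem cells, although the material was day 10 embryoid bodies. The lines differed in their markers: POU5F1, a pluripotency factor, was at 240 to 879 CPM in MEL1 and 21.3 to 62.2 CPM in H1, and PAX6, a neural ectoderm factor, was at 0.204 to 2.92 CPM in MEL1 and 95.8 to 224 CPM in H1. Replicates differed by more than sampling noise in every group with 2 libraries.

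METTL14 was lower in every knockdown library than in every SCR library. METTL14 (ENSG00000145388, chromosome 4, 118685368 to 118715433, plus strand) stood at 29.8 and 43.8 CPM in the H1 SCR libraries. Its H1 levels were 11.1 and 10.99 CPM with KD1, 17.7 and 14.8 CPM with KD2, and 8.89 and 13.5 CPM with KD3. In MEL1 the SCR library held 49.9 CPM, the KD1 libraries 8.03 and 5.94 CPM and the KD2 library 8.95 CPM. The SCR libraries of H1 differed more from each other than the KD1 libraries did, and both MEL1 KD1 libraries lay below the lowest H1 knockdown library. METTL14 fell by 1.96 on the log2 scale over both lines (SE 0.23, edgeR adjusted p 0.00266), a comparison in which 0.213% of all genes tested were called.

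**Figure D1:**
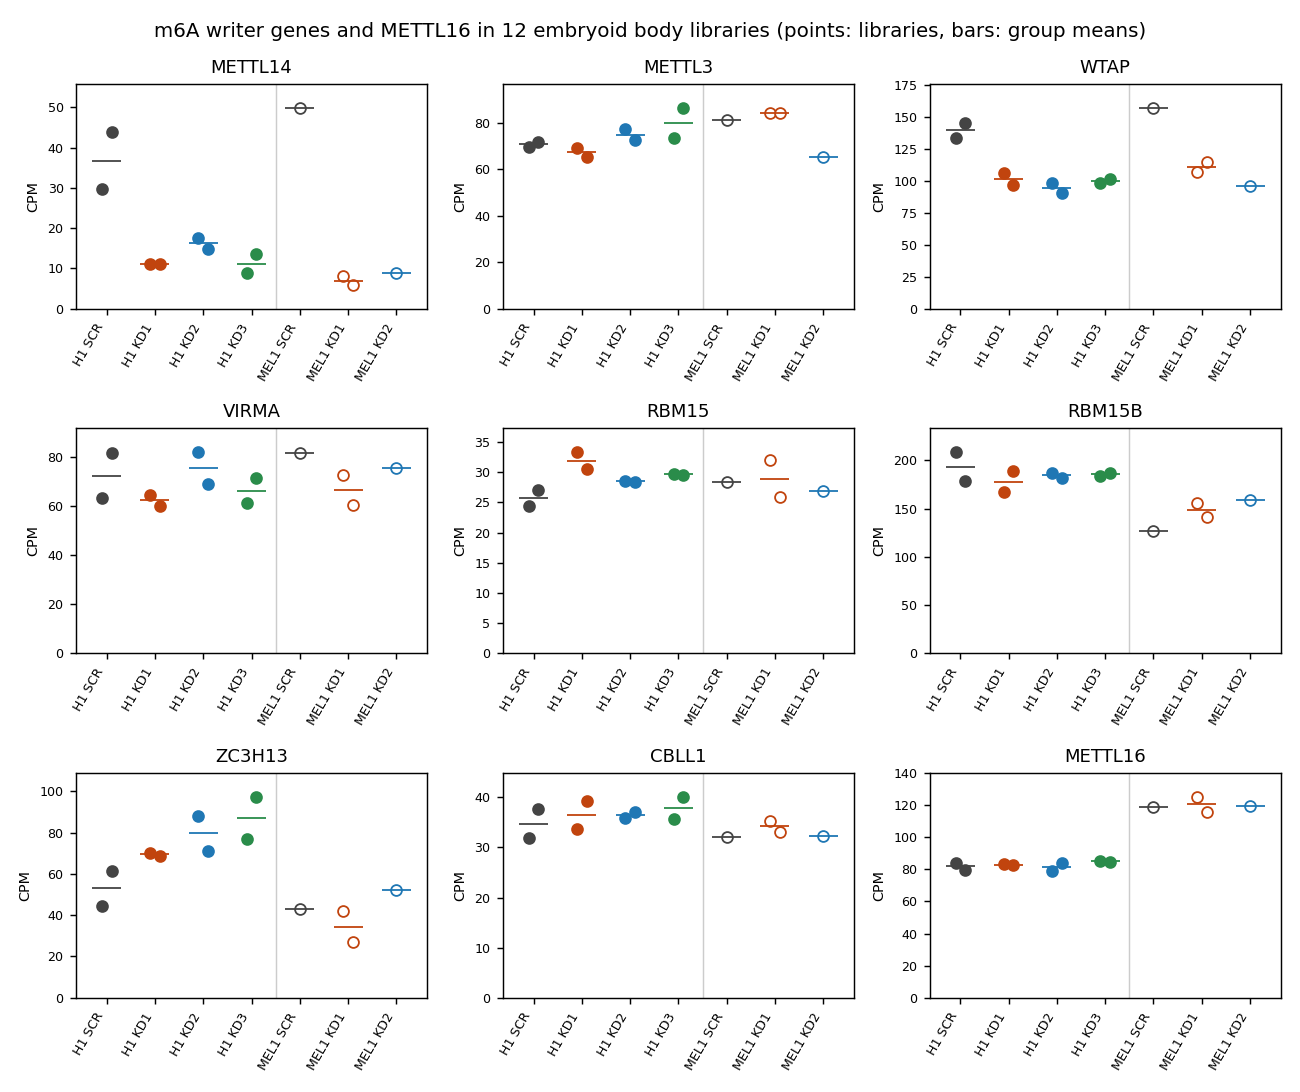
Level of each of the 9 genes in CPM (vertical axes) in the 12 libraries, grouped by line and hairpin along the horizontal axis; each point is 1 library and each bar a group mean. METTL14 lies at 5.94 to 17.7 CPM in the 9 knockdown libraries and at 29.8 to 49.9 CPM in the 3 SCR libraries, and WTAP is the other gene whose groups do not overlap across both lines.

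Among the 8 partners, WTAP was the gene that changed with METTL14. WTAP fell by 0.53 on the log2 scale over both lines (SE 0.09, 95% interval -0.71 to -0.34, edgeR adjusted p 0.0351), and the other 7 did not pass the test. The 7 had estimates between -0.14 for VIRMA and 0.34 for ZC3H13. An unadjusted p under 0.05 was found for 1 of the 8 partners and for 3918 of the 24898 genes tested. The median log2 fold change of the 8 partners was 0.03, against 0.05 over all genes tested. Of the 8, 6 had estimates above 0 and 2 below.

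WTAP (ENSG00000146457, chromosome 6, 159725585 to 159756319, plus strand) encodes the adaptor that brings the METTL3-METTL14 heterodimer to nuclear speckles. In H1 the SCR libraries stood at 133 and 145 CPM. With KD1 WTAP was at 106 and 96.9 CPM, with KD2 at 98.1 and 90.1 CPM, and with KD3 at 98.0 and 102 CPM. All 6 H1 knockdown libraries lay below both SCR libraries, a separation that 20.3% of all genes tested showed in either direction, and the hairpins lay close together. In MEL1 WTAP was at 157 CPM with SCR, at 106 and 114 CPM with KD1 and at 95.6 CPM with KD2. No MEL1 knockdown library reached the SCR library. With 1 SCR library this is a weak separation, and its share over all genes was not counted. The knockdown libraries held 70.7% ± 3.77 (SD, n = 6) of the H1 SCR mean and 67.2% ± 5.99 (SD, n = 3) of the single MEL1 SCR library, with a range of 60.9% to 76.1% over the 9. Over all 12 libraries, METTL14 and WTAP were the members whose 9 knockdown and 3 SCR libraries did not overlap, and 1.71% of all genes tested were separated this way in either direction.

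The WTAP call over both lines was held in part by single libraries. Leaving out 1 library ended it in 8 of 12 cases while the log2 fold change stayed between -0.56 and -0.50: adjusted p was 0.0906 without MEL1 SCR, 0.0764 without MEL1 KD1 replicate 1, 0.0705 and 0.240 without H1 SCR replicates 1 and 2, 0.0606 without H1 KD1 replicate 2, 0.0670 without H1 KD2 replicate 2, and 0.0707 and 0.0508 without H1 KD3 replicates 1 and 2 (edgeR). WTAP overlaps SOD2, a mitochondrial superoxide dismutase gene on the opposite strand, and the strand setting of the counting is not given in the sources used here. SOD2 (ENSG00000112096) was not called over both lines (log2 fold change -0.17, SE 0.12, edgeR adjusted p 0.511), but fell by 0.50 with H1 KD1 (SE 0.11, edgeR adjusted p 0.0184). Its part in the WTAP values was not tested.

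**Figure D2:**
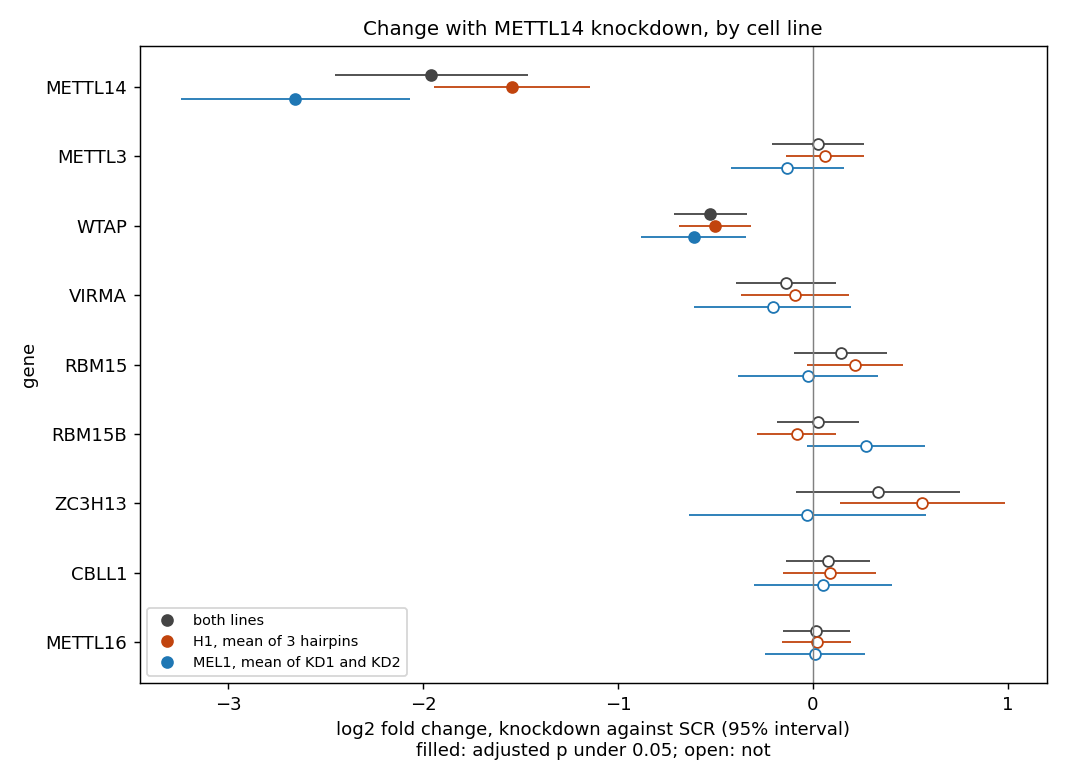
Log2 fold change of knockdown against SCR for the 9 genes (horizontal axis, points with 95% intervals) over both lines, in the average of the H1 hairpins and in MEL1; filled points passed an adjusted p of 0.05. METTL14 and WTAP passed in all 3 comparisons, at -1.96, -1.54 and -2.66 for METTL14 and -0.53, -0.50 and -0.61 for WTAP.

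METTL3, the catalytic subunit, did not follow METTL14. METTL3 (ENSG00000165819, chromosome 14, 21498133 to 21511375, minus strand) was at 69.8 and 71.7 CPM with SCR in H1. It was at 69.4 and 65.4 CPM with KD1, 77.5 and 72.5 CPM with KD2, and 73.6 and 86.6 CPM with KD3. In MEL1 it was at 81.3 CPM with SCR, 84.4 and 84.5 CPM with KD1 and 65.4 CPM with KD2. The knockdown libraries lay on both sides of the SCR libraries in each line, at 105% ± 10.3 (SD, n = 6) of the SCR mean in H1 and 96.1% ± 13.6 (SD, n = 3) of the SCR library in MEL1. Its log2 fold change over both lines was 0.03 (95% interval -0.21 to 0.26, edgeR adjusted p 0.945). METTL3 overlaps TOX4 at its end on the opposite strand, and TOX4 was not called either (log2 fold change 0.08, edgeR adjusted p 0.702).

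Of the regulatory subunits, ZC3H13 had the largest positive estimates, and they were in H1. ZC3H13 (ENSG00000123200, chromosome 13, 45954465 to 46052759, minus strand) encodes a zinc finger protein that anchors the regulatory subunits in the nucleus. In H1 it stood at 44.6 and 61.4 CPM with the control hairpin, at 69.9 and 68.9 CPM with KD1, at 88.0 and 71.2 CPM with KD2 and at 76.7 and 97.4 CPM with KD3. Every H1 knockdown library lay above both SCR libraries, a separation found for 20.3% of all genes tested in either direction. In MEL1 it was at 43.1 CPM with SCR, 41.8 and 26.8 CPM with KD1 and 52.2 CPM with KD2, so the SCR library lay among the knockdown libraries. The H1 average gave a log2 difference of 0.56 (SE 0.19, 95% interval 0.14 to 0.99), which did not pass (edgeR adjusted p 0.108), and MEL1 gave -0.03 (SE 0.27, edgeR adjusted p 1).

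ZC3H13 in the H1 average was called in 5 of 17 other settings and not called in 12. The edgeR fit called it with no filter on low counts (adjusted p 0.000338) and with a GC and length trend removed from each library (0.00444). DESeq2 called it too (adjusted p 0.0141), as did edgeR without MEL1 KD1 replicate 1 or 2 (log2 difference 0.57 in each). Without H1 SCR replicate 1 or 2 the log2 difference was 0.36 or 0.81 in the edgeR fit. The neural ectoderm markers PAX6, SOX1, OTX2, LHX2 and SIX3 also differed in H1: all except SOX1 rose in the H1 average, and the 5 summed to 337 to 425 CPM under SCR and 508 to 650 CPM under the hairpins. SOX1 in H1 was at 23.5 and 23.7 CPM with SCR and 11.9 and 17.2 CPM with KD1. It was at 24.4 and 14.3 CPM with KD2, and 33.0 and 39.7 CPM with KD3. The mesoderm markers TBXT, MESP1, KDR, HAND1 and PECAM1 summed to 155 and 159 CPM under SCR and to 61.1 to 89.6 CPM under the hairpins in H1, and of these KDR passed the edgeR test (lower, adjusted p 0.000162). In MEL1 the neural sum, most of it OTX2, was 131 CPM in the SCR library and 85.1 to 118 CPM in the others. OTX2 was at 125 CPM with SCR there and at 73.0 to 105 CPM under the hairpins, while the other 4 neural markers had estimates above 0. Of these, PAX6, LHX2 and SIX3 were near the floor, with 3, 9 and 4 counts in the MEL1 SCR library. An unadjusted p under 0.05 was found for 4 of the 5 neural markers and for 5641 of the 24898 genes tested. None of the 5 passed the edgeR test. The mesoderm sum in MEL1 was 106 CPM in the SCR library and 60.5 to 97.5 CPM in the others, with none of the 5 called. Of the pluripotency markers POU5F1, NANOG, ZFP42, LIN28A and DPPA4, 3 fell in the H1 average (POU5F1, NANOG and ZFP42) and 2 fell in the MEL1 average (ZFP42 and DPPA4). The hairpins differed within these averages. NANOG in H1 was at 7.04 and 6.12 CPM with SCR, 1.52 to 4.15 CPM with KD1 and KD2, and 8.60 and 6.79 CPM with KD3. In MEL1, DPPA4 was at 575 CPM with SCR, 560 and 592 CPM with KD1 and 259 CPM with KD2. POU5F1 there was at 496 CPM with SCR, 798 and 879 CPM with KD1 and 240 CPM with KD2. ZFP42 fell by 0.57 on the log2 scale in the H1 average and fell by 1.05 in MEL1 (edgeR adjusted p 0.0163 and 0.0114). The 5 pluripotency markers summed to 1135 and 1252 CPM under SCR and 1156 to 1374 CPM under the hairpins in H1, and to 3036 CPM and 2108 to 3479 CPM in MEL1. Endoderm markers (SOX17, FOXA2, GATA4, AFP and APOA1) were near 0, at a sum of 0.471 to 12.3 CPM over the 12 libraries. The part of these markers in the values of ZC3H13, RBM15 and WTAP was not tested.

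VIRMA and CBLL1 were not called in any comparison with SCR, apart from VIRMA with KD3 in 1 other setting. VIRMA (ENSG00000164944), the large scaffold subunit that directs methylation toward the 3′ end of transcripts, was at 63.2 and 81.7 CPM under SCR in H1 and ranged from 60.2 to 82.1 CPM, with a median of 66.9 CPM, in the 6 H1 knockdown libraries. In MEL1 it was at 82.0 CPM in the SCR library and at 60.7 to 75.8 CPM under the hairpins. The H1 groups overlapped, and the MEL1 difference rests on 1 SCR library. That setting, with the GC and length trend removed, put VIRMA lower with H1 KD3 (-0.28, edgeR adjusted p 0.0445). CBLL1 (ENSG00000105879, chromosome 7, 107743697 to 107761667, plus strand), a RING-finger E3 ubiquitin ligase, was at 32.0 and 37.6 CPM with SCR in H1, where the hairpins gave 33.7 to 40.1 CPM and the groups overlapped. In MEL1 it was at 32.0 CPM in the SCR library and 32.2 to 35.3 CPM under the hairpins. Over both lines VIRMA differed by -0.14 (95% interval -0.39 to 0.12) and CBLL1 by 0.08 (-0.14 to 0.30) on the log2 scale, and neither passed the edgeR test (adjusted p 0.624 and 0.752).

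The paralogs RBM15 and RBM15B, RNA-binding proteins that recruit the complex to its targets, differed from each other in level and in pattern. RBM15 (ENSG00000162775, chromosome 1, 110338506 to 110346681, plus strand) was at 24.5 and 27.1 CPM with SCR in H1. It was at 33.3 and 30.5 CPM with KD1, 28.5 and 28.4 CPM with KD2, and 29.7 and 29.6 CPM with KD3. All 6 knockdown libraries lay above both SCR libraries, and 20.3% of all genes tested were separated in H1 in either direction. The H1 average of 0.22 on the log2 scale (SE 0.11, 95% interval -0.03 to 0.46) did not pass the edgeR test (adjusted p 0.273). In MEL1 the SCR library, at 28.4 CPM, lay within the knockdown range of 25.9 to 32.0 CPM.

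RBM15B (ENSG00000259956, chromosome 3, 51391268 to 51397908, plus strand) was at 208 and 179 CPM with SCR in H1 and at 167 to 189 CPM, with a median of 186 CPM, under the hairpins. In MEL1 it was at 127 CPM with SCR, 155 and 142 CPM with KD1 and 159 CPM with KD2. The MEL1 knockdown libraries were all above the single SCR library, while in H1 they were all below the SCR mean. The share of all genes that lay on opposite sides like this was not counted. The test of this difference between the lines for KD1 and KD2 gave 0.37 on the log2 scale (SE 0.17, 95% interval -0.00 to 0.74), which did not pass (edgeR adjusted p 0.293). Neither line's own comparison passed: the log2 differences were -0.08 in the H1 average (edgeR adjusted p 0.650) and 0.27 in MEL1 (edgeR adjusted p 0.267). The MEL1 value was 0.22 to 0.30 when 1 library was left out, but as low as 0.01 in another processing setting. With the GC and length trend removed the H1 average was -0.23 and passed (edgeR adjusted p 0.0385), as did KD1 (-0.30, adjusted p 0.0258). Without H1 SCR replicate 1 the H1 average was 0.04 (adjusted p 0.903). RBM15B shares 2042 bases with DCAF1 on the opposite strand. DCAF1 was at 53.4 and 53.5 CPM with SCR in H1 and at 51.0 to 56.3 CPM under the hairpins. In MEL1 DCAF1 was at 68.5 CPM with SCR and at 61.2 to 71.1 CPM under the hairpins. Part of the RBM15B count may belong to DCAF1, which was not tested.

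METTL16 had the narrowest spread of the 9 within each line, relative to its level. METTL16 (ENSG00000127804, chromosome 17, 2405562 to 2511891, minus strand) was at 84.0 and 79.8 CPM with SCR in H1 and at 79.2 to 85.3 CPM, with a median of 83.5 CPM, under the hairpins. In MEL1 it was at 119 CPM in the SCR library and at 116 to 125 CPM in the others. Against SCR, the knockdown libraries stood at 101% ± 2.65 (SD, n = 6) for H1 and 101% ± 3.99 (SD, n = 3) for MEL1. Over both lines the log2 difference was 0.02, with a 95% interval of -0.16 to 0.19 (edgeR adjusted p 0.944). MAT2A, whose transcript METTL16 methylates, was not called either (log2 difference -0.12, SE 0.12, edgeR adjusted p 0.673).

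By hairpin in H1, WTAP was the 1 partner of 8 called with each of KD1, KD2 and KD3. The 3 comparisons share the H1 SCR libraries, so their values are given side by side. METTL14 fell by 1.74 with KD1, 1.18 with KD2 and 1.71 with KD3 on the log2 scale. WTAP fell by 0.46 with KD1 (SE 0.11, edgeR adjusted p 0.0218), by 0.57 with KD2 (SE 0.11, edgeR adjusted p 0.0302) and by 0.48 with KD3 (SE 0.11, edgeR adjusted p 0.0379). The hairpin with the smallest METTL14 estimate, KD2, had the largest WTAP estimate, but WTAP was not called in the test between hairpins given below. The background was 11.1% of all genes called with KD1, 1.54% with KD2 and 2.98% with KD3, and 7.16% in the H1 average. The median log2 fold change of the 8 partners was -0.03, 0.06 and 0.09 with KD1, KD2 and KD3, and over all genes it was -0.00, 0.01 and 0.02.

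Single libraries decided several of these calls. The H1 SCR libraries themselves differed in how a gene's deviation from its mean over the libraries followed transcript GC content (Spearman rho across genes 0.24 for replicate 1 and -0.37 for replicate 2). In H1 this rho was 0.24 and 0.42 with KD1, -0.12 and 0.09 with KD2, and 0.04 and -0.32 with KD3. In MEL1 it was -0.33 with SCR, 0.11 and 0.21 with KD1, and -0.08 with KD2, so the groups compared also differed in it. In the edgeR fits, METTL14 with KD2 was not called without H1 SCR replicate 2 (-0.88, adjusted p 0.197), H1 KD2 replicate 1 or 2 (adjusted p 0.129 and 0.263) or H1 KD1 replicate 1 or 2 (0.0771 and 0.0774), and METTL14 with KD1 was not called without H1 KD1 replicate 1 (0.0512). WTAP in the H1 average was called in 16 of 17 other settings and lost without H1 SCR replicate 2 (-0.44, adjusted p 0.121). That library also ended the WTAP call with KD1 (adjusted p 0.147), KD2 (0.158) and KD3 (0.155). H1 SCR replicate 1 ended it with KD2 (0.0577) and KD3 (0.0750). Leaving out either library of the hairpin compared ended it for each hairpin (0.0838 and 0.147 with KD1, 0.0949 and 0.222 with KD2, 0.136 and 0.179 with KD3). Leaving out H1 KD1 replicate 1 or 2 ended it with KD2 (0.0549 and 0.0546) and KD3 (0.0653 and 0.0651), as did H1 KD2 replicate 1 or 2 with KD3 (0.0547 and 0.0553).

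**Figure D3:**
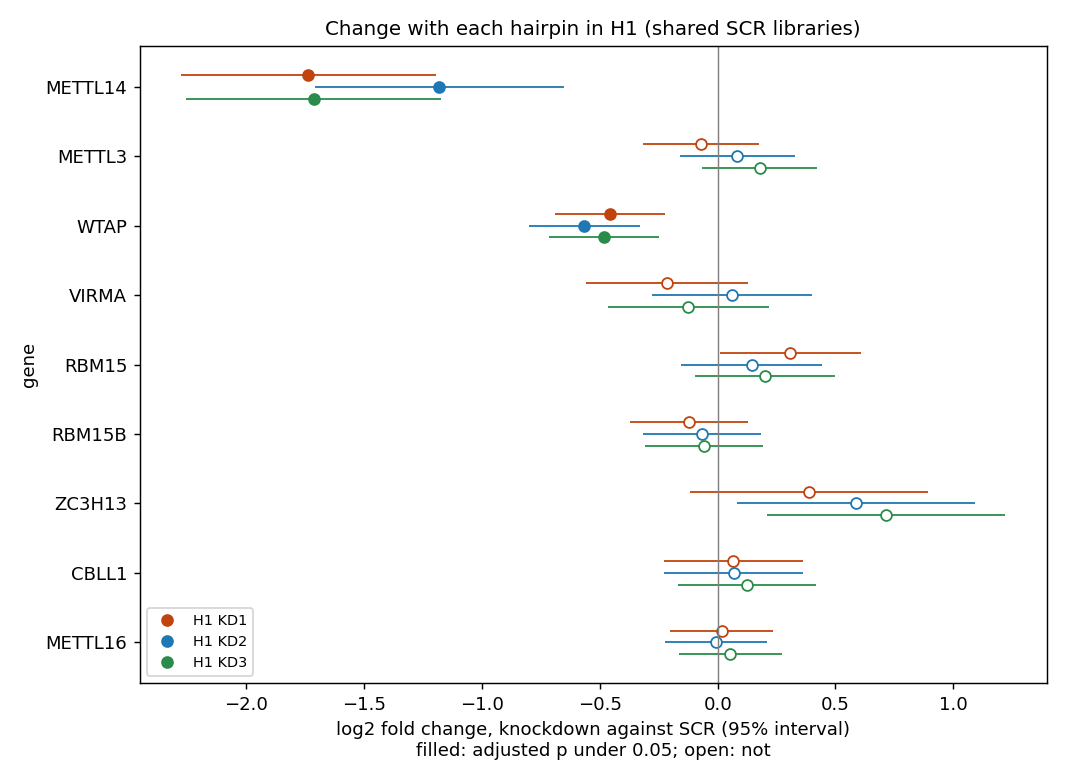
Log2 fold change against H1 SCR (horizontal axis) for the 9 genes under KD1, KD2 and KD3 (points with 95% intervals, filled where the adjusted p was under 0.05). METTL14 and WTAP are filled under all 3 hairpins, and ZC3H13 lies at 0.39, 0.59 and 0.72 without passing.

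Levels under the 3 hairpins were also compared with each other. This contrast leaves out the SCR means, but the SCR libraries still enter the scaling and the shared estimate of spread. None of the 9 genes differed between hairpins in edgeR's test with 2 degrees of freedom, in which 3.54% of all genes were called. An unadjusted p under 0.05 was found for none of the 8 partners and for 4978 of the 24898 genes tested. METTL14 was 0.56 higher with KD2 than with KD1 on the log2 scale (95% interval 0.02 to 1.09, edgeR adjusted p 0.302). METTL14 did pass the joint test with no filter on low counts (adjusted p 0.0335) and with the GC and length trend removed (0.0208). WTAP differed by -0.11 (95% interval -0.34 to 0.13) between KD2 and KD1 and by -0.02 (-0.26 to 0.21) between KD3 and KD1. METTL3 was 0.25 higher with KD3 than with KD1 (95% interval 0.01 to 0.49, edgeR adjusted p 0.226).

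**Figure D4:**
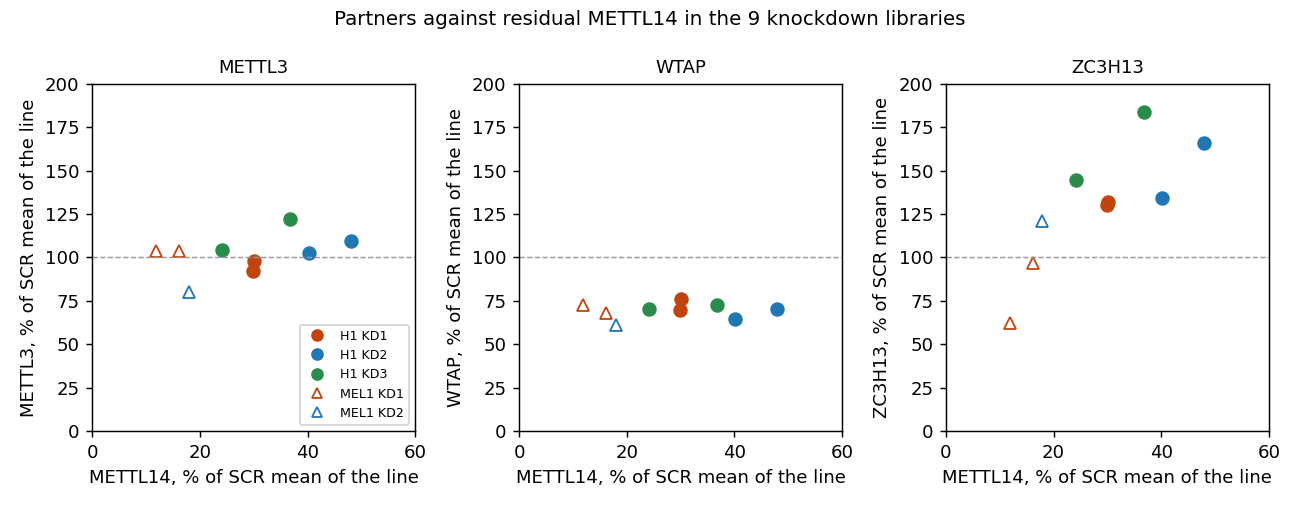
Level of METTL3, WTAP and ZC3H13 as a percentage of the SCR mean of the same line (vertical axes) against that of METTL14 (horizontal axes) in the 9 knockdown libraries, with lines and hairpins marked. WTAP stays between 60.9% and 76.1% while METTL14 ranges from 11.9% to 48.0%, METTL3 spreads around 100%, and ZC3H13 runs from 62.2% to 184%.

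In MEL1, where 1 SCR library is assumed to vary like the libraries of the other groups, the same pair was called. METTL14 fell by 2.66 (SE 0.27, edgeR adjusted p 0.00400) and WTAP fell by 0.61 (SE 0.12, edgeR adjusted p 0.0263) on the log2 scale, in a comparison that called 4.45% of all genes. The other 7 partners did not pass, and the median of the 8 was -0.03 against 0.07 over all genes. The knockdown effect on METTL14 in MEL1 minus that in H1 was -1.20 on the log2 scale (SE 0.34). It did not pass (edgeR adjusted p 0.121), and 0.598% of all genes did. METTL14 passed with no filter on low counts (adjusted p 0.000971), with DESeq2 (0.0234) and with the GC and length trend removed (0.0123). None of the 8 partners passed this test of a difference between lines, and for WTAP it was -0.10 (95% interval -0.44 to 0.24). The share of METTL14 left was 34.8% ± 8.55 (SD, n = 6) for H1 and 15.3% ± 3.09 (SD, n = 3) for MEL1, while the WTAP percentages of the lines overlapped.

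The lines themselves differed in the level of 3 of the 8 partners over the treatments they share. METTL16 was higher in MEL1 by 0.54 on the log2 scale (SE 0.06, edgeR adjusted p 3.92e-05). It was at 116 to 125 CPM in the 4 MEL1 libraries and at 79.2 to 85.3 CPM in the 8 H1 libraries. The share of all genes whose lines were separated this way was not counted. ZC3H13 was lower in MEL1 by a log2 difference of -0.64 (SE 0.16, edgeR adjusted p 0.00657), at 26.8 to 52.2 CPM against 44.6 to 97.4 CPM, with an overlap between the lines. RBM15B was lower in MEL1 by a log2 difference of -0.36 (SE 0.08, edgeR adjusted p 0.00251), at 127 to 159 CPM against 167 to 208 CPM. The RBM15B call was lost with the GC and length trend removed (-0.14, adjusted p 0.0527) and without the MEL1 SCR library (-0.24, adjusted p 0.0523). METTL14 itself, averaged over SCR, KD1 and KD2, differed by -0.36 (SE 0.16) and did not pass (edgeR adjusted p 0.0916), but it did without MEL1 SCR (-0.76, adjusted p 0.00769), without H1 SCR replicate 1 (-0.44, 0.0295), with no filter on low counts (-0.37, 0.0137) and with the trend removed (-0.24, 0.0335). METTL3 was called higher in MEL1 (0.26, edgeR adjusted p 0.0301) when the MEL1 KD2 library was left out, and VIRMA (0.19, adjusted p 0.00750) with the trend removed. This comparison called 49.1% of all genes, so 3 of 8 is no more than the background share. Line, marker content and any handling that differed between the lines cannot be told apart.

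Per unit of transcript length, METTL14 was among the lowest of the 9 in the control libraries. Counts were divided by the length of the longest protein-coding transcript and scaled to one fixed total per library, a description without a test. On this per-length scale the H1 SCR levels were 84.3 and 92.7 for WTAP, 80.2 and 83.1 for METTL3, and 72.6 and 62.8 for RBM15B. These 3 stood above METTL16 at 34.0 and 32.6 and VIRMA at 22.4 and 29.2. The remaining 4 were close together: CBLL1 at 16.7 and 19.8, ZC3H13 at 12.9 and 17.9, RBM15 at 13.3 and 14.9, and METTL14 at 10.3 and 15.3, and neighbours among these 4 overlapped in their ranges. The per-length ratio of METTL14 to METTL3 was 0.129 and 0.184 in the H1 SCR libraries and 0.185 in MEL1 SCR. It was 0.0365 to 0.0688 in the H1 knockdown libraries and 0.0212 to 0.0414 in the MEL1 knockdown libraries. The place of METTL14 rests on its longest transcript of 6669 bases: with the median length of its coding transcripts, 927 bases, its H1 SCR levels were 39.8 and 58.8 and the mean ratio to METTL3 was 0.721. The place of RBM15B also depended on the length used. With median lengths for all genes, its H1 SCR levels were 38.9 and 33.5, against 33.1 and 31.6 for METTL16.

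**Figure D5:**
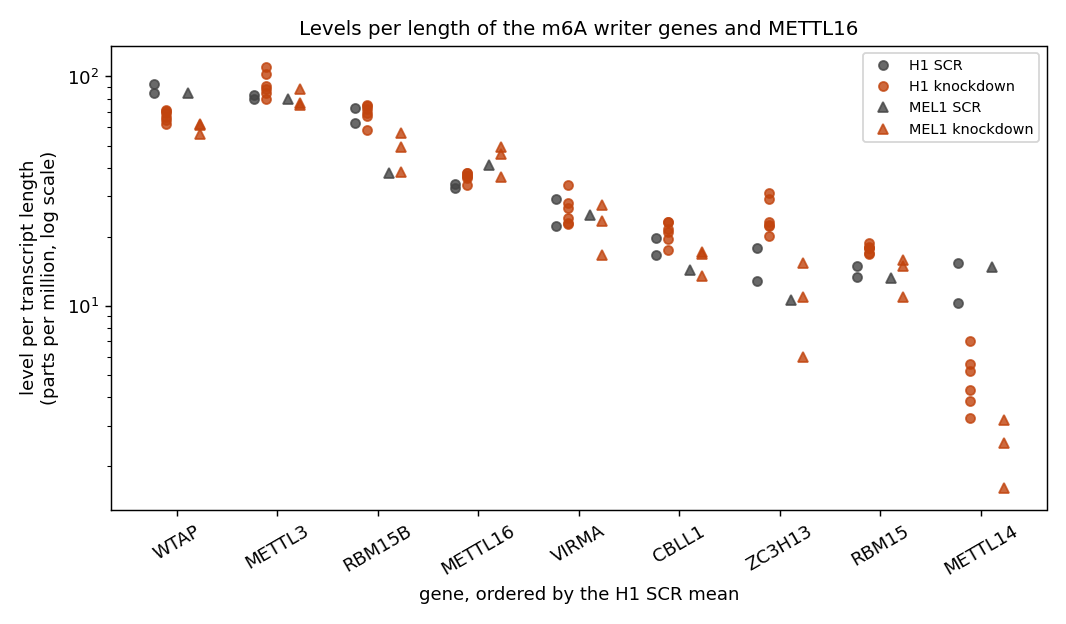
Level per transcript length (vertical axis, logarithmic, parts of one fixed total per library) of the 9 genes in the 12 libraries, using the longest protein-coding transcript of each gene; genes are ordered by their H1 SCR mean and each point is 1 library. In the H1 SCR libraries WTAP, METTL3 and RBM15B lie at 62.8 to 92.7 and METTL14, RBM15, ZC3H13 and CBLL1 at 10.3 to 19.8.

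The genes whose levels followed METTL14, METTL3 and WTAP most closely were found from log2 CPM centred within each line, over 12 libraries and 10323 genes. The libraries share line, hairpin and depth, so these correlations are descriptions. For METTL14 they were EFCAB2 (Pearson r 0.95), FAM114A2 (0.94) and SPTLC2 (0.93). EFCAB2 was at 8.97 and 10.03 CPM under SCR in H1 (hairpins 6.72 to 8.56 CPM) and at 23.2 CPM under SCR in MEL1 (hairpins 10.6 to 11.9 CPM). For WTAP they were PLS3 (0.96), UTP14A (0.95) and SNX24 (0.95). PLS3 was at 153 and 168 CPM under SCR in H1 (hairpins 115 to 132 CPM) and at 426 CPM under SCR in MEL1 (hairpins 253 to 296 CPM). For METTL3 they were ZNF619, ANOS2P and PPP2R2B, at an r of 0.92 each. No member appeared among the 9 genes found.

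Beyond the writers, 21 other m6A genes were counted: 10 readers, 2 erasers, 4 genes of other m6A methyltransferases (METTL5, its cofactor TRMT112, ZCCHC4 and PCIF1), 4 genes of S-adenosylmethionine supply and recycling, and SPEN, a relative of RBM15. None of the 21 was called by edgeR over both lines or in the H1 average, and 5 had an unadjusted p under 0.05 in each. Of the 24898 genes tested, 3918 over both lines and 5783 in the H1 average had such a p. Over both lines the estimate was below 0 for 8 of 10 readers, with a median of -0.13. With H1 KD1, where 11.1% of all genes were called, 4 of the 21 were called, named here after their values were seen. The eraser ALKBH5, a demethylase of m6A, rose by 1.13 on the log2 scale (SE 0.22, edgeR adjusted p 0.0135), from 119 and 86.8 CPM with SCR to 254 and 197 CPM. The readers IGF2BP1 and HNRNPC fell by 0.46 and 0.61, and MAT2B, a regulatory subunit of S-adenosylmethionine synthesis, fell by 0.50 on the log2 scale (edgeR adjusted p 0.0251, 0.0163 and 0.0238). In MEL1, where 4.45% of all genes were called, 2 of the 21 passed: IGF2BP1 fell by 0.59 and PCIF1, the methyltransferase of cap-adjacent adenosines, rose by 0.66 (edgeR adjusted p 0.0314 and 0.0480), and none of the 21 was called with KD2 or KD3 in H1.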

How the data were processed

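Embryoid body RNA was profiled in 12 libraries. Per the labels, total RNA libraries were made with a stranded kit and sequenced as paired ends. The authors deposited 1 table of estimated counts per Ensembl gene identifier, which were not whole numbers in 14.8% to 20.8% of the values of a library. The submitters' processing notes name fastp and kallisto, while their versions, the genome build, the annotation and the strand setting are not given in the sources used here. Estimated counts can be split between overlapping genes or near copies.

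Counts were rounded, filtered with filterByExpr (24898 genes left) and scaled by TMM in edgeR 4.0.16 (limma 3.58.1, R 4.3.3). Robust quasi-likelihood F-tests were run on all genes, with Benjamini-Hochberg adjustment over all of them. The comparison over both lines used 9 knockdown and 3 SCR libraries with cell line as covariate; all others came from a model of the 7 group means. The SE was obtained from the log2 fold change and its F statistic (ratio of the first to the root of the second). Per-length levels used GENCODE release 29 transcript lengths, matched by identifier. The genes named are the 9 members, other m6A genes called over both lines or in the H1 average (none), and the 3 genes (mean level 10 CPM or more) most correlated with METTL14, METTL3 and WTAP; other genes were named after their values were seen. The members and lists were chosen with earlier results of these data known. Other settings were scaling by DESeq2 size factors or upper quartiles, no filter, DESeq2 1.42.0, removal of a GC and length trend (90.6% of tested genes had values), group means and leaving out each library. Libraries had 15963241 to 43508287 counts; the members' lowest count was 207, and counts behind each level limit its precision.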

Additional observations from a re-analysis of the deposited data

Results flagged for a closer look

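RBM15B had a library that stood apart. Among the 6 H1 knockdown libraries, KD1 replicate 1 was the lowest at 167 CPM, and its gap to the next library took 0.692 of the whole range, above Dixon's 95% critical value for 6 libraries. All 9 genes were examined this way and 1 was past the limit; chance puts about 1 in 20 groups past it.

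RBM15B also lay on opposite sides of SCR in the lines, a pattern whose share over all genes was not counted. All 6 H1 knockdown libraries were below the H1 SCR mean, at 94.5% of it on average, and all 3 MEL1 knockdown libraries were above the single MEL1 SCR library, at 120% of it, a difference of -25.1 percentage points (H1 minus MEL1). In edgeR's test of the difference between lines for KD1 and KD2, which was 0.37 on the log2 scale (SE 0.17), the adjusted p was 0.293 and did not pass. Without H1 SCR replicate 1, the H1 average was 0.04 on the log2 scale in place of -0.08. The MEL1 log2 difference was as low as 0.01 in another processing setting.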

How the results depend on the processing

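METTL14 and WTAP were lower in every comparison with SCR and every setting tried, and METTL14 over both lines and in the H1 average, and WTAP in MEL1, were called in all of them. WTAP over both lines was called under every other scaling, filter and tool (adjusted p 7.43e-07 to 0.0487) and in 4 of 12 fits without 1 library (up to 0.240). Of 1368 values of member results under other settings, 1257 kept direction and side of the threshold, 34 lost a call, 25 gained one and 52 changed sign. The number of the 8 partners called, 1 with SCR as control, became 2 in the H1 average with no filter and with DESeq2 and 3 with the GC and length trend removed. It became 3 with H1 KD1 under the trend removal, 2 with KD2 with no filter and under the trend removal, and 2, 2 and 3 with KD3 with no filter, DESeq2 and the trend removal; without 1 library it ranged from 0 to 1 over both lines and per hairpin and from 0 to 2 in the H1 average. The mean per-length METTL14 to METTL3 ratio in H1 SCR was 0.157 with the longest transcripts and 0.721 with the median length.

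The sign changes were in estimates that were not called in the main fit. Of these, RBM15B in the H1 average and with KD1, and VIRMA with KD3, were called with the trend removed. With the trend removed the log2 values were -0.15 for RBM15B over both lines, 0.040 for METTL3 with H1 KD1, -0.0087 for VIRMA with KD2, -0.023 for METTL16 with KD3, 0.099 for ZC3H13 in MEL1, 0.027 for CBLL1 in the difference between lines and 0.11 for RBM15 in the level of MEL1 against H1. In MEL1, DESeq2 size factors and the DESeq2 tool each gave -0.0078 for CBLL1 and -0.049 for METTL16, and upper-quartile scaling gave -0.015 and -0.056. For METTL16 the difference between lines was -0.067 with either DESeq2 setting and -0.094 with upper-quartile scaling, where the median of all genes moved from 0.11 to 0.01. RBM15 in the level of MEL1 against H1 was 0.0039 with DESeq2 size factors and 0.0040 with DESeq2, and METTL3 over both lines was -0.014 with group means. Without 1 library, the ranges over both lines were -0.0082 to 0.071 for METTL3, -0.078 to 0.14 for RBM15B and -0.0017 to 0.040 for METTL16. In the H1 average they were -0.26 to 0.10 for VIRMA, -0.19 to 0.044 for RBM15B, -0.015 to 0.21 for CBLL1 and -0.015 to 0.069 for METTL16. With KD1 they were -0.23 to 0.027 for RBM15B, -0.047 to 0.19 for CBLL1 and -0.020 to 0.085 for METTL16; with KD2, -0.11 to 0.26 for VIRMA, -0.17 to 0.050 for RBM15B, -0.042 to 0.19 for CBLL1 and -0.048 to 0.034 for METTL16; with KD3, -0.30 to 0.072 for VIRMA and -0.17 to 0.055 for RBM15B. In MEL1 they were -0.14 to 0.055 for METTL3, -0.11 to 0.037 for RBM15, -0.33 to 0.11 for ZC3H13 and -0.024 to 0.029 for METTL16. In the difference between lines they were -0.16 to 0.13 for METTL3, -0.33 to 0.020 for VIRMA, -0.14 to 0.072 for CBLL1 and -0.056 to 0.043 for METTL16, and RBM15 in the level of MEL1 against H1 ran from -0.12 to 0.018. The cause was not tested.

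Counts over all genes moved more: 53 over both lines (11 to 2688 in other settings), 1783 in the H1 average (123 to 3256), 2758, 384 and 741 with KD1, KD2 and KD3 (261 to 4160, 61 to 1745 and 109 to 2290), 1107 in MEL1 (576 to 2703), 149 between lines (36 to 1369) and 881 between hairpins (159 to 3384). Without the MEL1 SCR library, MEL1 could not be compared with SCR. No paired analysis was possible because the labels carry no replicate numbers. The single MEL1 SCR library, with the lowest total, limits every MEL1 percentage.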
